A study of Mus musculus with 36 samples.

Results

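The livers of 12-week-old mice were compared with those of 8-week-old mice by RNA sequencing, with 4 libraries at each age, 8 of the 36 libraries of a study that also covered heart, kidney and the age of 10 weeks. The libraries were chosen by their labels for tissue and age, and a gene was tested when its mean count reached 10 at either age and at least 2 libraries of that age held a count, which left 14367 of the 78239 gene rows. All animals were untreated wild-type males of the substrain C57BL/6NCrl, bought at 6 weeks of age, kept on standard chow with free access to food and killed under ketamine and xylazine at 8, 10 or 12 weeks, and each group held 4 biological replicates. Females were not part of the design, and neither the hour of collection nor the cage of each animal is given in the sources used here. Levels are given in CPM, the count of a gene relative to the counted pairs of its library, after scaling by edgeR's TMM factors, and a fold change is that of 12 against 8 weeks.

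The liver of the adolescent mouse takes up fatty acids and burns them in mitochondria and peroxisomes, makes ketone bodies, bile acids and plasma proteins, and clears foreign compounds through cytochrome P450 enzymes and conjugating enzymes. Many of these genes respond to growth hormone, thyroid hormone, glucocorticoids and the lipid sensor PPARα, and in mice a number of them differ between the sexes from puberty on. Hepatocytes supply most of the RNA of the organ, beside endothelial cells of the sinusoids, stellate cells that deposit matrix, Kupffer cells and bile duct cells.

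Between 21031599 and 28246807 read pairs were counted on genes in the 8-week libraries and between 27021294 and 29676013 in the 12-week libraries. Markers of hepatocytes were abundant at both ages, and their summed level ranged over 101150.0 to 133440.0 CPM in the younger and 96871 to 125240.0 CPM in the older group, whereas the summed markers of fat, kidney and muscle stayed under 1 CPM in every library. A single library stood apart. Replicate 1 of the 12-week group held 28.8 CPM of *Hspa1a* and 196 CPM of *Hspa1b*, both inducible heat shock proteins, against at most 1.44 and 17.9 CPM in the other 7 libraries. The same library held 120 CPM of *Hmox1* (heme oxygenase 1) and 38 CPM of *Atf3*, a stress-induced transcription factor, against at most 16.7 and 1.72 CPM elsewhere. *Gclc* and *Srxn1*, a pair of antioxidant genes, reached 788 and 159 CPM there, against at most 276 and 31.1 CPM in the others. Several results that moved with this library are given with and without it.

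**Figure D1:**
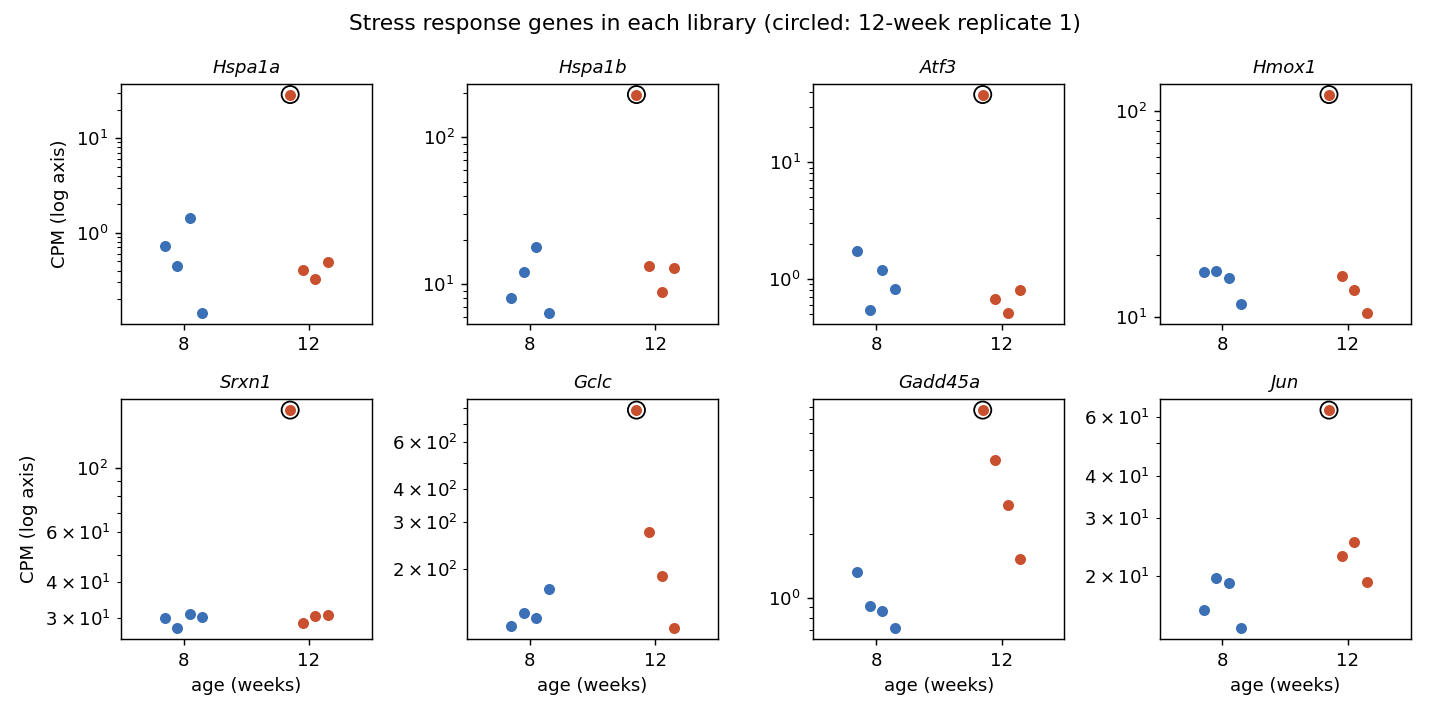
Level of 8 stress response genes (CPM, log axis) in each of the 4 libraries at 8 weeks (blue) and the 4 at 12 weeks (red), with replicate 1 of the 12-week group circled. The circled library lies above the other 7 for every gene shown, at 28.8 CPM for *Hspa1a* where the others lie between 0.143 and 1.44 CPM.

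Few genes passed the test for a difference between the ages, with 4 libraries at each. At an adjusted p under 0.05 in edgeR's quasi-likelihood test and a log2 fold change beyond 1, 10 genes (0.0696% of those tested) rose and 3 (0.0209%) fell from 8 to 12 weeks. Past the adjusted p alone, 26 genes rose (0.181%) and 11 fell (0.0766%). The groups did not overlap for any of these 37 genes. They were chosen for their difference between these same libraries, so that a lack of overlap was likely from the start. Over all genes tested, 4.34% were without overlap and higher and 3.88% without overlap and lower at 12 weeks. At an unadjusted p under 0.05, 1077 genes were higher (7.5%) and 1136 lower (7.91%), and the median log2 fold change of all genes was -0.0033. For 33 of the 37 genes the mean at 10 weeks lay between those at 8 and 12 weeks. The choice of genes with distant means at 8 and 12 weeks favours this, and the share over all genes was not counted.

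The number of genes depended on single libraries. Without replicate 1 of the 12-week group, *Gm28661*, *Erbb4*, *Peg3*, *Tlcd2* and *Pctp* were the 5 genes left past the adjusted p, and the adjusted p of the other 32 lay between 0.0604 and 0.107. Leaving out replicate 2 of the 8-week group left 2 genes, *Gm28661* and *Erbb4*. The counts were 22 and 11 without replicates 1 and 3 of the 8-week group, and 7, 8 and 79 without replicates 2, 3 and 4 of the 12-week group.

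**Figure D2:**
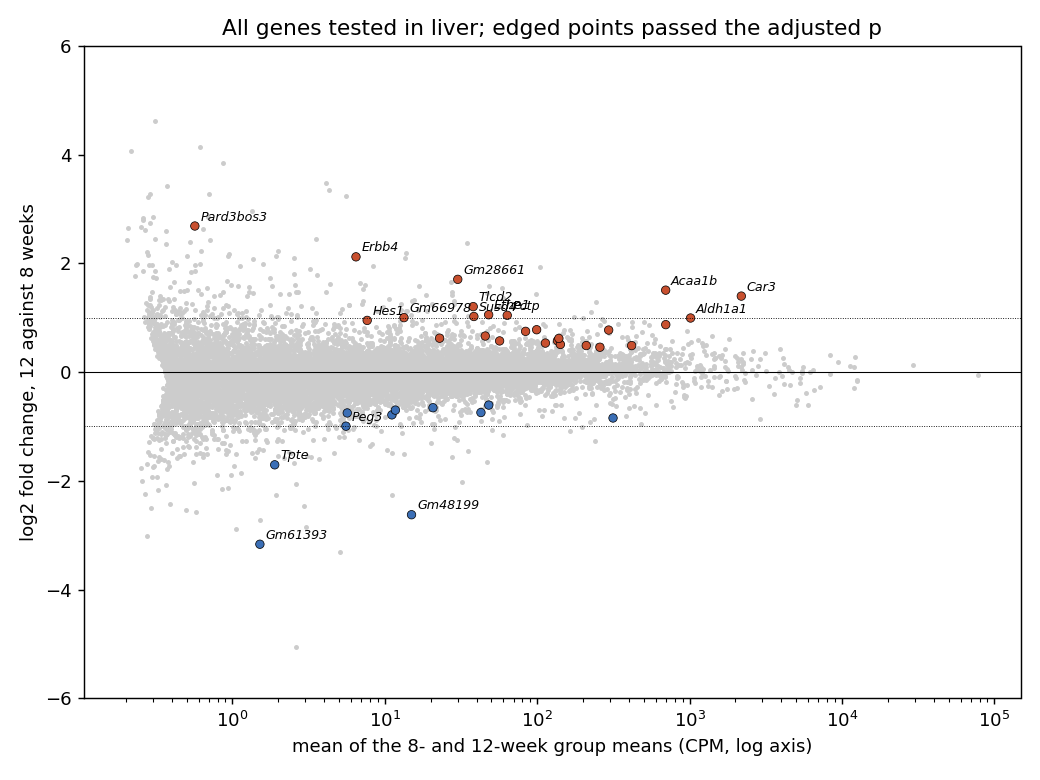
Log2 fold change of 12 against 8 weeks for the 14367 genes tested, against the mean of the 8- and 12-week levels (CPM, log axis), with dotted lines at a log2 fold change of 1 and -1. Edged points are the 26 genes that rose (red) and the 11 that fell (blue) past an adjusted p of 0.05.

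*Erbb4*, a receptor tyrosine kinase of the epidermal growth factor receptor family that binds neuregulins, had the largest increase among the called genes that code for proteins. Its level was 1.72, 3.81, 2.21 and 1.86 CPM in the 8-week livers and 10.5, 13.3, 9.82 and 8.6 CPM in the 12-week livers. Every 12-week library lay above every 8-week library, and the 10-week libraries, at 4.58, 5.61, 6.54 and 5.86 CPM, lay between them. The gene (chr1:68071345-69147619, GRCm39, minus strand) rose by a log2 fold change of 2.12 ± 0.24 (SE, n = 4 and 4), 4.35-fold, with an adjusted p of 0.00505 in edgeR's quasi-likelihood test, and by 2.12 without replicate 1 of the 12-week group (adjusted p = 0.0174). Of 11 receptors and ligands of this family that were tested, *Erbb4* alone passed. Its relatives *Egfr* (-0.27 ± 0.31), *Erbb2* (-0.45 ± 0.28) and *Erbb3* (0.01 ± 0.18) did not pass, and neither did the ligand *Nrg1* (2.00 ± 0.92, adjusted p = 0.324).

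Enzymes of fat breakdown in the peroxisome, the organelle that shortens very long fatty acids, made up a further group. *Acaa1b*, a thiolase that carries out the last step of the peroxisomal cycle, stood at 388, 399, 449.7 and 214 CPM in the 8-week libraries and at 1204, 1252, 750.1 and 916 CPM in the 12-week libraries. The lowest 12-week library lay above the highest 8-week library, though the 12-week values fell into a higher and a lower pair. The log2 fold change was 1.51 ± 0.25 (SE, adjusted p = 0.0307), and 1.42 without replicate 1 of the 12-week group (adjusted p = 0.0857). *Ehhadh*, which catalyses the middle steps of the cycle, rose from 217 ± 10.2 to 298 ± 11.9 CPM (SD, n = 4; log2 fold change 0.46 ± 0.08, adjusted p = 0.0307). *Decr2*, needed for fatty acids with double bonds, rose from 109 ± 10.4 to 168 ± 10.6 CPM (log2 fold change 0.62 ± 0.11, adjusted p = 0.0414). Of 14 peroxisomal genes tested, 13 were higher at 12 weeks, where 49.4% of all genes tested were higher and 50.6% lower, and 8 of them were without overlap. The median over the 14 was 0.43 on the log2 scale, but only these 3 passed. Among the others, *Abcd3*, which imports fatty acids into the peroxisome, had a log2 fold change of 0.69 ± 0.14 (adjusted p = 0.0647).

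The promoters of these 3 genes are shown because all 3 rose, with that of *Erbb4* beside them. RefSeq (GRCm38.p6, not the build of the counts) held a promoter for 25 of the 37 genes, as 250 bases before and 50 after the start of transcription. Capitals mark GGGCGG and CCAAT on either strand, so that CCGCCC and ATTGG are marked too, and neighbouring matches may overlap. All 4 lie on the minus strand and are written in the direction of the gene, *Acaa1b* from chr9:119157044-119157343, *Ehhadh* from chr16:21787785-21788084, *Decr2* from chr17:26090115-26090414 and *Erbb4* from chr1:69108010-69108309.
Acaa1b: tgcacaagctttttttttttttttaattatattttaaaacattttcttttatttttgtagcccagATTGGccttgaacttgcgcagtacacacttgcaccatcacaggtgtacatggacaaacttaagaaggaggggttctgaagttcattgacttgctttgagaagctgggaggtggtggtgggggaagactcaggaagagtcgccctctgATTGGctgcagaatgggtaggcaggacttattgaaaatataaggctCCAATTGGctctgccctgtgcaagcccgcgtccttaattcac
Ehhadh: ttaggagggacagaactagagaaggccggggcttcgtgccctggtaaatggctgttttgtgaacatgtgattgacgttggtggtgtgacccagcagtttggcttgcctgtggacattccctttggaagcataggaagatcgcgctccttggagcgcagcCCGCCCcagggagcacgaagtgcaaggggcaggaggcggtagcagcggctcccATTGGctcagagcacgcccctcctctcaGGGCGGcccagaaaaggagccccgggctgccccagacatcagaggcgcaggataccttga
Decr2: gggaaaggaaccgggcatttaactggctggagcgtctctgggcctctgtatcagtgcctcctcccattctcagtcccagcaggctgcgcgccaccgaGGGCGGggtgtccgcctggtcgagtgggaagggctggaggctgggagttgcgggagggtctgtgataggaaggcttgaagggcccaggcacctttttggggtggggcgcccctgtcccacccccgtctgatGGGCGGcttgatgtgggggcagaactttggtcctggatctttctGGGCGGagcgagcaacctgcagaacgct
Erbb4: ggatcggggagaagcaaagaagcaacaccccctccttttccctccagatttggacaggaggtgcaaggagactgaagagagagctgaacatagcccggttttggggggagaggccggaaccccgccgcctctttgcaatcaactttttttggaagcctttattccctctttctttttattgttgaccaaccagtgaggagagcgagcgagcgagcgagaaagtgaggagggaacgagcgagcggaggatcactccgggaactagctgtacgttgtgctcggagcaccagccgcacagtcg
The *Acaa1b* window held 4 matches to CCAAT and no GGGCGG, *Ehhadh* 1 and 2, *Decr2* 0 and 3, and *Erbb4* none of either. Over the 10353 promoters of genes tested, 38.6% held CCAAT and 62.1% held GGGCGG. Further searches, on either strand, found no match in the 4 windows to AGGTCA (in 12.8% of these promoters), to TTCNNNGAA (in 6.89%), to the E-box CACGTG (in 10.0%) or to the letters TATAAA (in 7.69%).

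Genes of mitochondrial fatty acid oxidation were higher at 12 weeks as a group, by a small amount. Of 19 tested, 17 were higher and 14 were without overlap, with a median log2 fold change of 0.32, yet none passed the adjusted p in edgeR's test, and 14 had an unadjusted p under 0.05. *Hadh*, of the third step of the cycle, averaged 214 ± 16.2 CPM at 8 weeks against 275 ± 12.7 CPM at 12 weeks (adjusted p = 0.0691), and *Acsl1*, which activates fatty acids, averaged 616 ± 18.8 and 911 ± 132 CPM (adjusted p = 0.107). *Cpt1a*, which controls the entry of fatty acids into mitochondria, had a log2 fold change of -0.04 ± 0.11 (adjusted p = 0.902). The 4 genes of ketone body synthesis had a median of 0.31 and none passed. Of 24 PPARα targets, 22 were higher and *Acaa1b* and *Ehhadh* passed. The median of this list was 0.51, and 0.29 without replicate 1 of the 12-week group, where *Cidec*, a lipid droplet protein, stood at 10.1 CPM against 0.949 to 3.03 CPM in the other 12-week libraries.

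**Figure D3:**
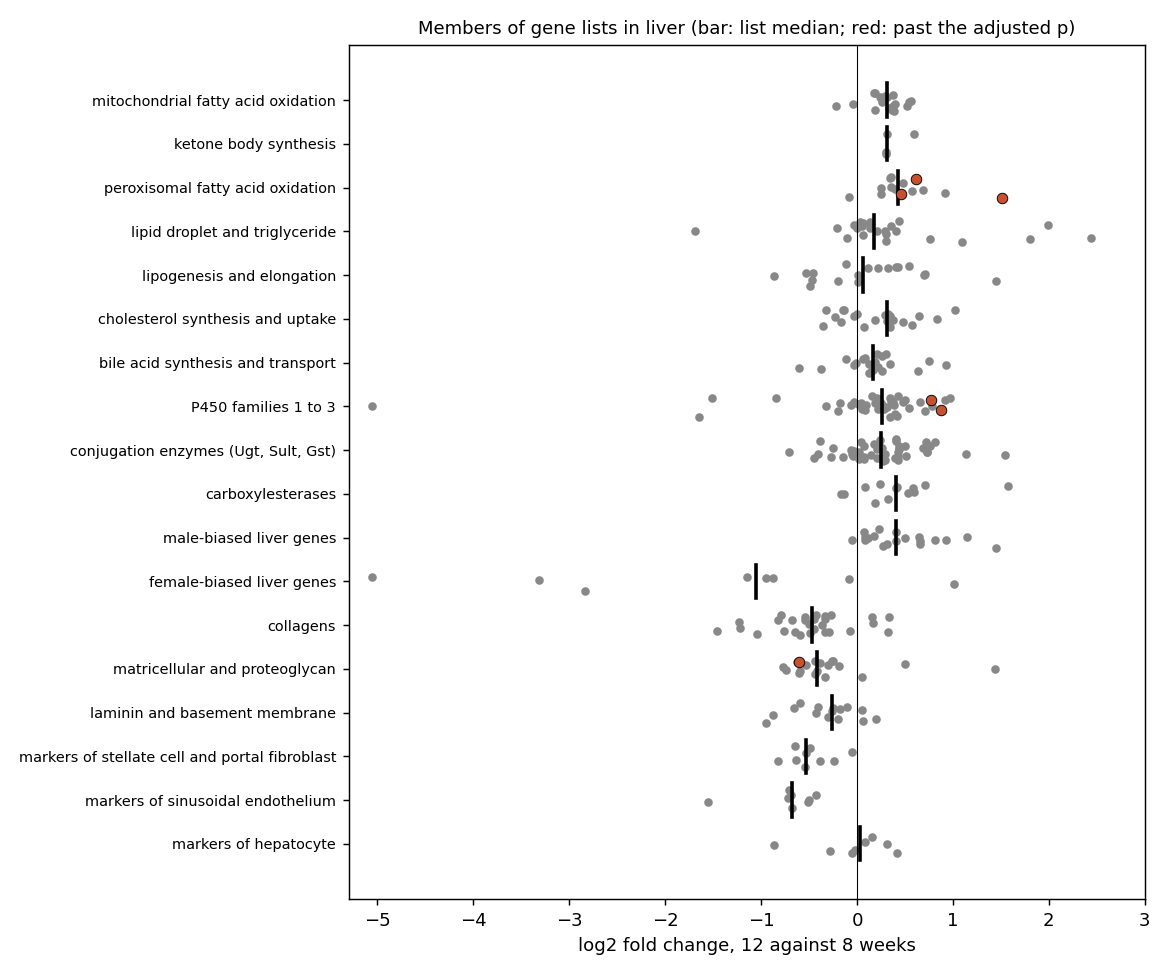
Log2 fold change of 12 against 8 weeks for each tested member of 18 gene lists, 1 point a gene, with the list median as a black bar and genes past the adjusted p in red. The members of mitochondrial and peroxisomal fatty acid oxidation lie mostly to the right of 0, with medians of 0.32 and 0.43, and the collagens mostly to the left, with a median of -0.47.

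*Car3*, a carbonic anhydrase that is abundant in liver, fat and muscle, had the most counts of the called genes. It stood at 1013, 1336, 1519 and 938 CPM at 8 weeks, at 1613, 1548, 2762 and 2041 CPM at 10 weeks and at 3369.6, 3627, 3121 and 2549.7 CPM at 12 weeks. No 12-week library lay within the range of the 8-week libraries, and the log2 fold change was 1.40 ± 0.20 (SE, adjusted p = 0.0202; 0.0604 without replicate 1 of the 12-week group). *Car3* was the only one of 10 carbonic anhydrases to pass. The summed level of 5 fat markers was at most 0.310 CPM and 3 of them were at 0 throughout, and that of 4 muscle markers was at most 0.0340 CPM.

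Further called genes act in lipid handling and in sulfide metabolism. *Pctp*, which carries phosphatidylcholine, stood at 47.3, 43.7, 40.1 and 34.8 CPM at 8 weeks and 99.2, 92.8, 74.9 and 75.5 CPM at 12 weeks (log2 fold change 1.04 ± 0.14, adjusted p = 0.0107). *Ethe1*, a mitochondrial enzyme that detoxifies sulfide, rose from 35.8, 34.2, 26.6 and 28.1 CPM to 66, 62, 78.3 and 52.9 CPM (log2 fold change 1.05 ± 0.17, adjusted p = 0.0299). *Susd4*, an inhibitor of complement, went from 31.1, 20.1, 31.4 and 18.8 CPM to 47.8, 50.9, 53.5 and 53.6 CPM (log2 fold change 1.02 ± 0.16, adjusted p = 0.0293). None of the 3 had overlapping ages, and the 12-week values of *Susd4* were the closest together. *Tlcd2*, a membrane protein, stood at 25.1, 23.1, 26.3 and 17.5 CPM at 8 weeks and 49, 66.2, 47.3 and 49.6 CPM at 12 weeks (log2 fold change 1.20 ± 0.15, adjusted p = 0.0107), with replicate 2 of the 12-week group above the rest. Of its exonic bases 39.5% are shared with other genes, among them the host gene of the microRNA *Mir22* on the same strand, so that its counts may be incomplete.

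Among the 16 genes that rose by less than a log2 fold change of 1, several act on retinoids, steroids and foreign compounds. *Aldh1a1*, which makes retinoic acid from retinal, stood at 574, 728, 904 and 507 CPM at 8 weeks and 1609, 1336, 1205 and 1255 CPM at 12 weeks (log2 fold change 0.99 ± 0.16, adjusted p = 0.0307). *Rdh16*, a retinol dehydrogenase, rose by 0.78 ± 0.14, and *Fdx1*, which passes electrons to mitochondrial P450 enzymes, by 0.53 ± 0.09. The P450 genes *Cyp2c54* and *Cyp2c50* rose by 0.77 ± 0.13 (adjusted p = 0.0307) and 0.87 ± 0.15 (adjusted p = 0.0311). They are close relatives within a gene cluster, and pairs that match both are not counted. Of 41 genes of P450 families 1 to 3, 32 were higher and these 2 passed, while none of 46 conjugating enzymes and none of 13 carboxylesterases did, with medians of 0.25 and 0.40.

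*Dio1*, the deiodinase that activates thyroid hormone, stood at 30 ± 10.5 and 87.4 ± 19 CPM (adjusted p = 0.106), and *Trhde*, which degrades thyrotropin-releasing hormone, at 0.303 ± 0.0993 and 2.38 ± 1.08 CPM (adjusted p = 0.0517). *Hes1*, a transcriptional repressor downstream of Notch, rose by 0.95 ± 0.14 (adjusted p = 0.0202), from 5.22 ± 0.31 to 10.1 ± 1.49 CPM. Further genes that passed the adjusted p with a log2 fold change under 1 were *Adtrp* (0.75 ± 0.11), *Slc49a4* (0.66 ± 0.12), *Cox19* (0.62 ± 0.11), an assembly factor of cytochrome c oxidase, *Rcl1* (0.58 ± 0.10), *BC004004* (0.57 ± 0.10), *Apoa2* (0.49 ± 0.09), a protein of high-density lipoprotein, and *Gch1* (0.49 ± 0.08), the first enzyme of tetrahydrobiopterin synthesis. Of the exonic bases of *Apoa2* 25.9% lie opposite other genes, as do 12.3% of those of *Decr2* and 14.5% of those of *Sgk1*, below, and counts without strand cannot tell such partners apart.

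Of the genes that fell, *Peg3*, an imprinted gene expressed from the paternal copy, had the lowest p. It stood at 7.66, 8.26, 7.0 and 6.68 CPM at 8 weeks and at 3.69, 4.1, 3.54 and 3.54 CPM at 12 weeks, without overlap. The log2 fold change was -0.99 ± 0.13 (SE, adjusted p = 0.0107), and -0.99 without replicate 1 of the 12-week group (adjusted p = 0.0381). Of 10 imprinted and fetal growth genes tested, 7 were lower and *Peg3* alone passed. *Tpte*, a phosphatase-like gene better known from testis, stood at 3.11, 3.13, 2.64 and 2.72 CPM at 8 weeks and 0.723, 0.664, 0.949 and 1.22 CPM at 12 weeks, 3.26-fold lower, with 18 to 32 counts in a 12-week library (adjusted p = 0.0202).

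Among the genes past the adjusted p, a pair of neighbouring non-coding genes on chromosome 13 had the most negative log2 fold changes. *Gm48199* (chr13:52334190-52337367, GRCm39, plus strand) stood at 16.6, 31.9, 23.9 and 30.6 CPM at 8 weeks and 1.86, 3.43, 4.45 and 7.0 CPM at 12 weeks, a log2 fold change of -2.62 ± 0.47 (adjusted p = 0.0414). *Gm61393* (chr13:52339117-52342387, minus strand), whose 3′ end faces that of *Gm48199*, stood at 1.84, 4.15, 2.11 and 2.81 CPM and 0.276, 0.295, 0.328 and 0.304 CPM, 8.98-fold lower, from 44 to 122 counts down to 8 or 9 (adjusted p = 0.0199). Both were lowest at 10 weeks in the same library, replicate 3. On chromosome 1, the non-coding gene *Pard3bos3* rose by 2.69 ± 0.48 (adjusted p = 0.0422) from 2 to 6 counts at 8 weeks to 12 to 44 at 12 weeks, and *Gm66978* on chromosome 3 rose by 1.00 ± 0.18 (adjusted p = 0.0423), from 8.88 ± 1.64 to 17.8 ± 3.89 CPM.

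The gene with the lowest p was *Gm28661*, an unprocessed pseudogene at chr1:24653966-24654646 (GRCm39, minus strand). It stood at 15.9, 14.4, 11.7 and 14.4 CPM at 8 weeks, 48.6, 45.5, 43.1 and 47.9 CPM at 10 weeks and 44.4, 44.8, 48.6 and 46.5 CPM at 12 weeks, so that the 10- and 12-week libraries lay together and above the 8-week libraries. The log2 fold change was 1.71 ± 0.10 (SE, adjusted p = 2.16e-06). All 681 of its bases are identical to bases 7013 to 7693 of the mitochondrial genome, in *mt-Co2*, a subunit of cytochrome c oxidase. It lies in a nuclear copy of 4654 aligned bases, chr1:24650616-24655269, of which 4651 are identical (99.94%). The letters of a pair within the gene therefore cannot tell the copy from the mitochondrion, and the value is uncertain as a measure of either. *mt-Co2* itself was counted at only 11, 9.34, 7.82 and 9.16 CPM at 8 weeks and 8.96, 10.2, 8.94 and 10.3 CPM at 12 weeks, against group means of 28087 and 30581 CPM for *mt-Co1*, and neither passed (adjusted p = 0.902 and 0.563). The nearest differences from the mitochondrial genome are shown because they mark how far a pair must reach to tell the sequences apart. Each window is 120 bases of the minus strand of GRCm39, and the capital is the nuclear base that differs.
Before the 5′ end, chr1:24655206-24655325: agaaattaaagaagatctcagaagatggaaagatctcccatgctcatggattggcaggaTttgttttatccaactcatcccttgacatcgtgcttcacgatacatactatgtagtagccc
Past the 3′ end, chr1:24652138-24652257: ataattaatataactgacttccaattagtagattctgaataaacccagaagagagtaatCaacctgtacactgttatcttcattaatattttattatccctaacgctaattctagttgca
With the mitochondrial base first, its position, and then the nuclear base, the differences are A6393T, 620 bases before the gene, and T9461C, 1768 bases past it. The first 56 bases of the upper window lie outside the copy.

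**Figure D4:**
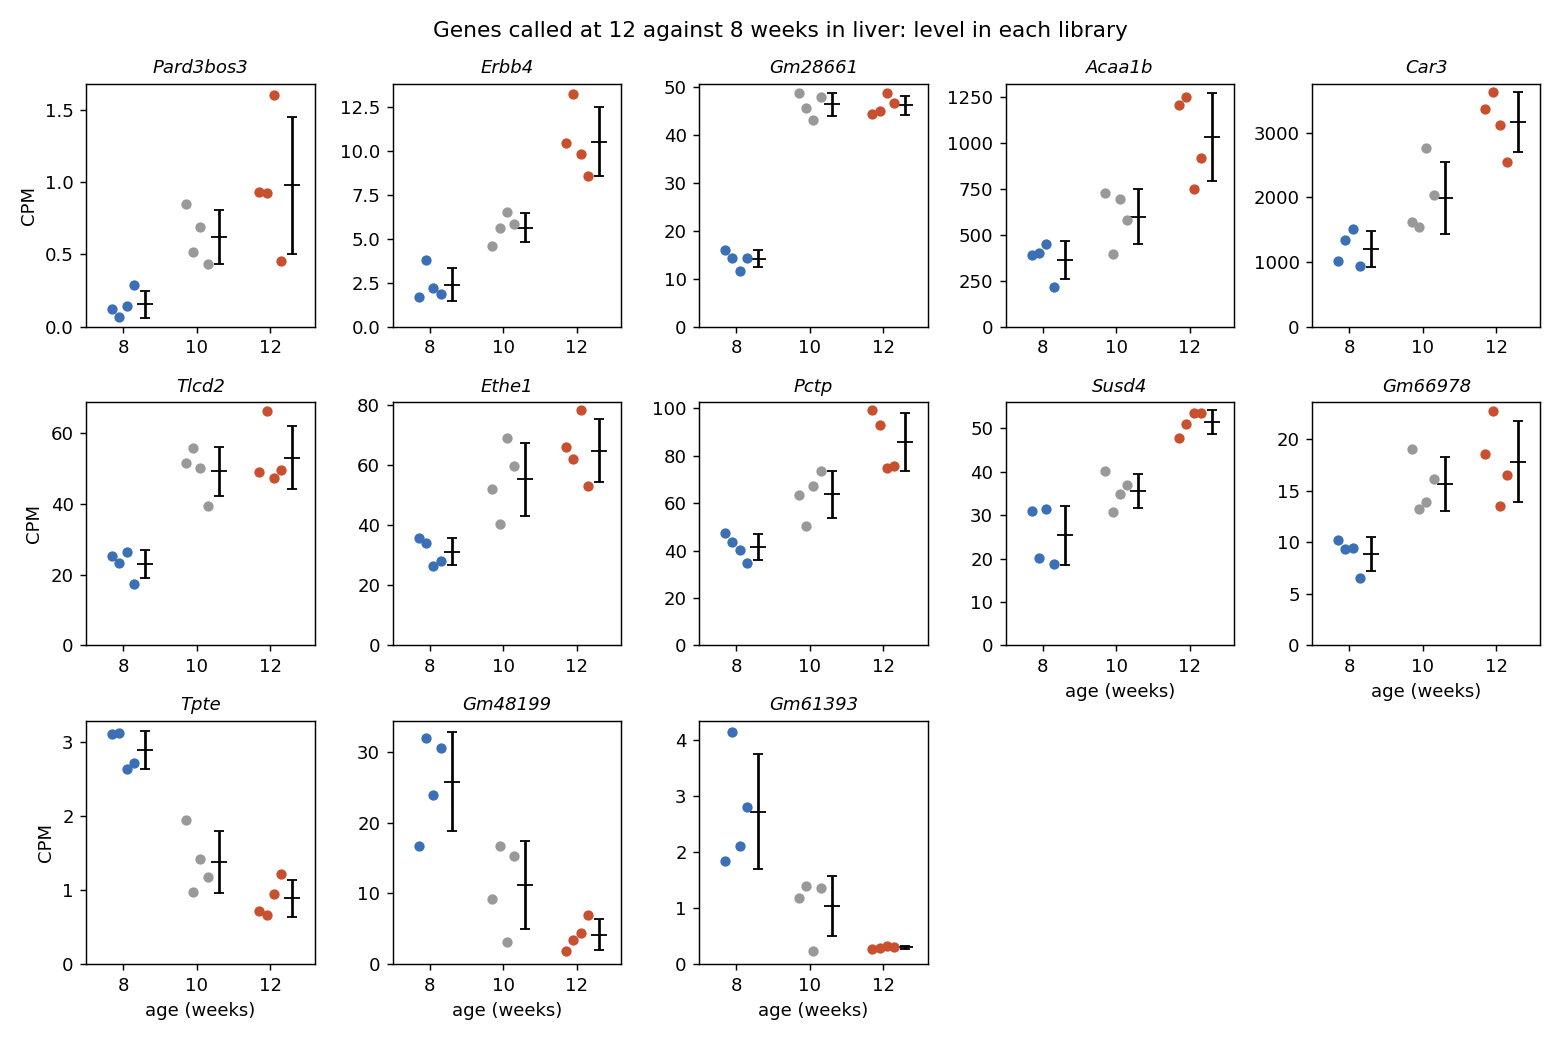
Level in CPM of the 13 called genes in each library at 8 (blue), 10 (grey) and 12 weeks (red), with the mean and SD (n = 4) beside the points and each axis starting at 0. The 8- and 12-week libraries do not overlap for any of the 13, and *Gm28661* averages 46.3 ± 2.49 and 46.1 ± 1.93 CPM at 10 and 12 weeks.

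Genes of the extracellular matrix were mostly lower at 12 weeks. Of 28 collagens tested, 24 were lower, 11 of them at an unadjusted p under 0.05 and 4 without overlap, with a median log2 fold change of -0.47, and none passed the adjusted p in edgeR's test. *Col5a2*, a fibrillar collagen, averaged 4.33 ± 0.588 CPM at 8 weeks against 2.55 ± 0.229 CPM at 12 weeks (adjusted p = 0.0819). Of 19 matricellular proteins and proteoglycans, 16 were lower and *Sparc*, which binds collagen, passed. *Sparc* stood at 53.5, 65.4, 49.7 and 63.6 CPM at 8 weeks and 33.5, 40.5, 39.6 and 38.8 CPM at 12 weeks (log2 fold change -0.61 ± 0.11, adjusted p = 0.0437). Of 15 laminins and basement membrane genes, 12 were lower with a median of -0.26 and none passed, *Lamb2* having the lowest p (-0.60 ± 0.13, adjusted p = 0.0771).

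Markers of the cells that make and line this matrix were lower too. All 8 markers of the sinusoidal endothelium were lower at 12 weeks, their summed level ranging over 216 to 368 CPM at 8 weeks against 152 to 209.5 CPM later, and none passed. *Lyve1*, a hyaluronan receptor of these cells, stood at 19.9, 60.1, 37.2 and 48.1 CPM at 8 weeks and 13.1, 17.3, 13.4 and 12.5 CPM at 12 weeks (log2 fold change -1.56 ± 0.30, adjusted p = 0.0529). All 9 tested markers of stellate cells and portal fibroblasts were lower as well, at 171 to 318 and 141 to 222 CPM in sum. The list of these markers holds the collagen genes *Col1a1* and *Col1a2* and the proteoglycan gene *Dcn*. It is therefore not independent of the matrix genes above. The 4 markers of mesothelium, the covering layer of the organ, were low and were lower in all 4, with a median of -0.77, and -0.44 without replicate 1 of the 12-week group. Their summed level was 4.51 to 9.34 CPM at 8 weeks and 0.861 to 6.5 CPM at 12 weeks, and none passed. The part of these markers in the values for collagens, *Sparc* and *Gpihbp1* was not tested, and in whole liver fewer cells of a type and less RNA per cell cannot be told apart. *Gpihbp1*, which anchors lipoprotein lipase to capillary endothelium, fell by 0.70 on the log2 scale (adjusted p = 0.0491).

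Among genes induced by glucocorticoids, 9 of 12 were lower and *Sgk1*, a kinase that acts on ion channels, passed (log2 fold change -0.66 ± 0.11, adjusted p = 0.0307). *Tsc22d3*, which encodes the protein GILZ, averaged 222 ± 59.2 CPM at 8 weeks against 104 ± 26 CPM at 12 weeks (adjusted p = 0.0534). The other genes that fell were *Slc38a2* (-0.84 ± 0.15), a carrier of neutral amino acids, *Gpr155* (-0.74 ± 0.13), *Armcx3* (-0.75 ± 0.14) and *Or5m3b* (-0.79 ± 0.13), which is annotated as an odorant receptor. *Gpr155* had its whole change by 10 weeks, at 53.5 ± 2.0, 30.7 ± 3.88 and 31.9 ± 6.27 CPM at the 3 ages, whereas *Sgk1* was at 25.3, 24.5 and 16.1 CPM.

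Genes that differ between the sexes in adult liver lay on opposite sides of 0 without passing the test. Of 19 male-biased genes, 18 were higher at 12 weeks (median 0.40 on the log2 scale), and of the 8 of 17 female-biased genes that could be tested, 7 were lower, with a median of -1.05. The male-biased median was 0.26 without replicate 4 of the 8-week group, 0.26 without replicate 2 of the 12-week group, and between 0.30 and 0.51 when any other single library was left out. The female-biased median was -0.81 without replicate 4 of the 8-week group and -0.84 without replicate 1 of the 12-week group. It was -1.56 without replicate 4 of the 12-week group. In each of these fits 6 of the 8 female-biased genes were lower. *Elovl3*, a male-biased elongase, stood at 52.3, 60.9, 75.2 and 22.3 CPM at 8 weeks and 160.0, 166, 164 and 83.9 CPM at 12 weeks (adjusted p = 0.28), its lowest value being that of replicate 4 of the 8-week group. *Cyp2a4*, a female-biased P450, had the most negative log2 fold change of all genes, -5.06 ± 1.39 (adjusted p = 0.136), but its 8-week level rested on replicate 4, at 0.798, 0.204, 0.288 and 18.9 CPM in the 4 libraries. The 12-week libraries held 0.103, 0.111, 0.182 and 0.19 CPM, and the log2 fold change was -1.51 without that library (adjusted p = 0.334).

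The clock genes were divided, with 9 of 20 higher and 11 lower and none past the adjusted p. *Nr1d1*, a repressor within the clock whose level swings over the day, stood at 55.4, 35.6, 24.8 and 20.4 CPM at 8 weeks and 131, 86.9, 80.7 and 19.1 CPM at 12 weeks, with replicate 4 of the 12-week group below the other 7 libraries. The list of heat shock and cold-inducible genes was higher in 11 of 11 and the NRF2 targets in 8 of 9. The list of immediate early and growth arrest genes was higher in 15 of 21, and no gene of these lists passed. Without replicate 1 of the 12-week group, their medians went from 0.41, 0.69 and 0.45 to 0.07, 0.01 and -0.30. Leaving out another single library gave medians of 0.35 to 0.63 (without replicate 3 of the 12-week group), of 0.53 to 1.07 (without replicate 4 of the 8-week group) and of 0.38 to 0.70 (without replicate 4 of the 12-week group). All 13 genes of MHC class I and II were higher, with a median of 0.35, and none passed. Markers of B and plasma cells, of which 3 of 8 were tested, were higher in all 3 (median 1.10), their summed level ranging over 3.53 to 6.63 CPM at 8 weeks and 6.51 to 17.7 CPM at 12 weeks. Of 8 markers of T and NK cells only *Cd4* was tested, with a log2 fold change of 0.83, and their sum ranged over 1.97 to 2.36 and 2.55 to 4.21 CPM. None of these markers passed, and their part in the values of the MHC genes was not tested.

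Of 29 genes that the study names for liver, which it chose on these samples, 24 were higher and 5 lower, and *Erbb4*, *Car3*, *Acaa1b* and *Ehhadh* passed. The others included *Nat8*, an acetyltransferase of detoxification (1.25 ± 0.25, adjusted p = 0.0647), *Gadd45a* (2.10 ± 0.43, adjusted p = 0.0647), *Gucy2c* (-2.89 ± 0.68, adjusted p = 0.0929) and *Mogat1*, of triglyceride synthesis (2.44 ± 0.60, adjusted p = 0.103). These values, that of *Gadd45a* among them, are given with all libraries only. The level of *Mogat1* was low, with means of 0.0918 CPM in the younger and 0.526 CPM in the older group, so that its log2 fold change rests on few counts. The median of the list was 0.80, and 0.56 without replicate 1 of the 12-week group. It lay between 0.64 and 1.05 when any other single library was left out.

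The change in liver was then set against the change over the same ages in heart and kidney, in an edgeR model of all 36 libraries that treated the libraries as independent, since the labels do not say which tissues came from the same animal. Of the 37 genes, 24 had a mean count of at least 10 in heart and 31 in kidney. The change differed from that in heart for 12 of the 24 (4.30% of all 19471 genes of this fit) and from that in kidney for 9 of the 31 (0.308%). The 24 and 31 genes were chosen for their change in liver, which this test used again, and for their counts in the other tissue. Their shares therefore cannot be weighed against those of all genes. *Erbb4*, *Pctp*, *Slc49a4* and *Gpr155* differed from both. For *Erbb4* the log2 fold change was 0.17 in heart and -0.05 in kidney, and the differences were 1.95 ± 0.23 and 2.17 ± 0.23 (SE, adjusted p = 2.75e-05 and 1.5e-06). *Acaa1b* differed from kidney by 1.94 ± 0.34 (adjusted p = 0.00878), where its log2 fold change was -0.43. *Gm28661* moved the other way in heart, with a log2 fold change of -2.67 (difference 4.38 ± 0.60, adjusted p = 0.000156), and was at 2.05 in kidney, where the difference of -0.34 ± 0.60 did not pass.

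**Figure D5:**
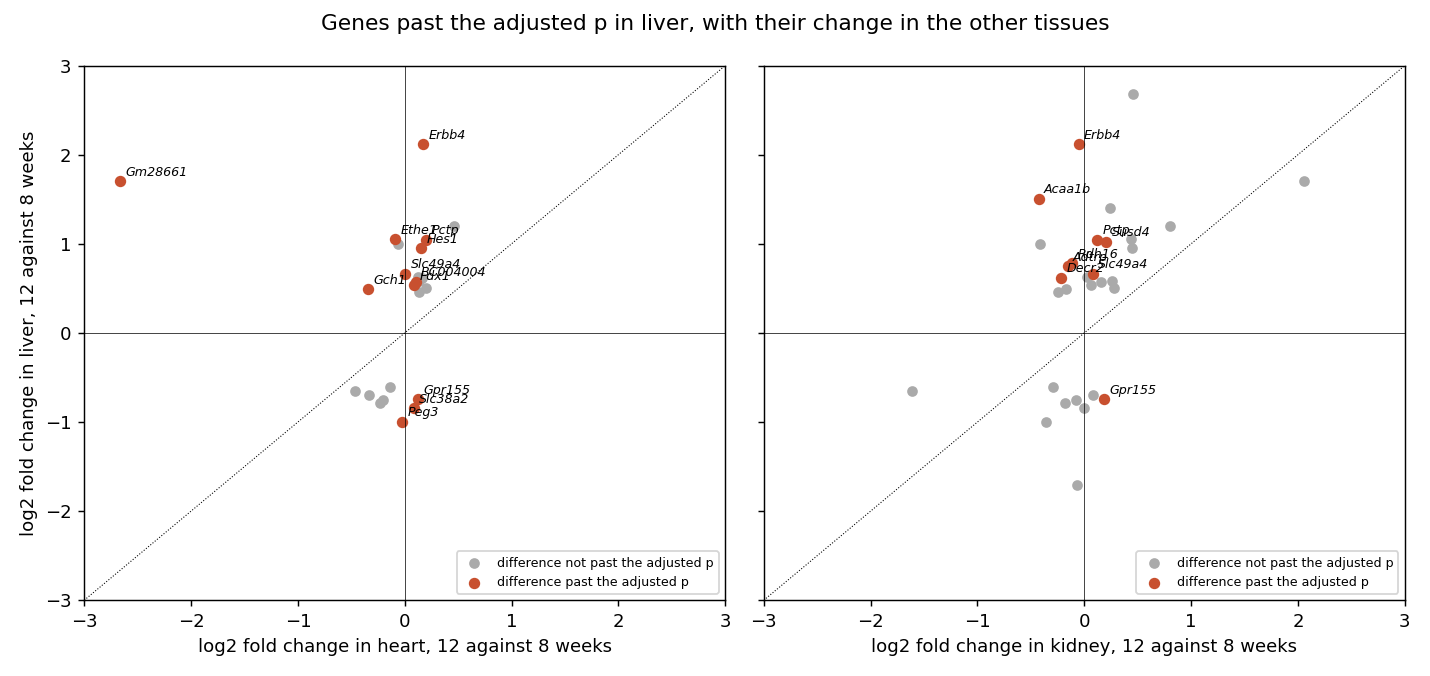
Log2 fold change of 12 against 8 weeks in liver for the genes past the adjusted p there that had a mean count of at least 10 in the other tissue, against the same change in heart (left) and kidney (right), with the dotted line where both are equal. Red points are the 12 and 9 genes whose change differed between the tissues past the adjusted p, and *Erbb4* lies at 0.17 in heart and -0.05 in kidney.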

How the data were processed

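Poly(A) RNA of heart, kidney and liver was sequenced as read pairs. Per the labels and the study's methods, the authors checked reads with FastQC 0.11.9, trimmed them with cutadapt 4.2, aligned them with STAR 2.7.11b to GRCm39 with the Ensembl annotation and deposited raw counts of uniquely mapped pairs per gene, without normalization. Of the deposited columns, the one that ignores strand was taken. In the 8-week libraries 74.81% to 78.84% of pairs fell on genes, and in the 12-week libraries 72.07% to 74.78%, without overlap between the ages. Unmapped pairs made up 2.81% to 6.96% at 8 weeks and 6.46% to 9.51% at 12 weeks. The part of these differences in the results was not tested. Rows of unmapped or ambiguous pairs were left out. Depth sets the precision of genes with few counts, and the coefficient of variation between animals was 0.205. Names and positions came from GENCODE vM39, which matched 78168 of 78239 identifiers.

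All 12 liver libraries were fitted with a mean for each age, TMM factors and edgeR 4.0.16 (glmQLFit and glmQLFTest, R 4.3.3), with Benjamini-Hochberg adjustment over the 14367 genes tested. Standard errors are the log2 fold change over the root of F. Genes were called at an adjusted p below 0.05 with a log2 fold change beyond 1. Differences between tissues came from an interaction in a model of 36 libraries. Alternatives were DESeq2 1.42.0, limma-voom (limma 3.58.1), RLE factors, other filters, fits of 2 ages, a replicate block, the counts of the first strand, and each library left out. The mitochondrial copy was located with blastn 2.17.0. The scripts were tested on simulated data, where 59% of the genes set to change 2-fold and 93% of those set to change 4-fold passed the adjusted p.

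Genes named are those past the adjusted p, up to 4 members of each list (those past the adjusted p, then by p) and the genes the study names for liver. *Cpt1a*, *Egfr*, *Erbb3*, the mitochondrial genes and the stress genes of the library that stood apart were named outside this rule, after their values were seen. The members and the lists were chosen with earlier results of these data known. Some genes that the naming rule covers are not reported here.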

Additional observations from a re-analysis of the deposited data

Results flagged for a closer look

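Dixon's test of the highest or lowest of 4 libraries, which by chance marks about 1 group in 20, marked *Tlcd2* in replicate 2 of the 12-week group, at 66.2 CPM. It also marked, in replicate 1 of that group, *Hspa1a* at 28.8 CPM, *Hspa1b* at 196 CPM, *Hmox1* at 120 CPM, *Atf3* at 38 CPM and *Srxn1* at 159 CPM. The last 5 were chosen because that library stood apart in them, so that their marks describe the choice and are no further support for it.

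The change from 8 to 12 weeks in liver differed from that in heart, past the adjusted p of the interaction in edgeR's quasi-likelihood test, for 12 genes. The difference, liver minus heart on the log2 scale, was 4.38 for *Gm28661*, 1.95 for *Erbb4*, 1.16 for *Ethe1*, 0.86 for *Pctp*, 0.85 for *Gch1*, 0.81 for *Hes1*, 0.67 for *Slc49a4*, 0.48 for *BC004004* and 0.46 for *Fdx1*. It was -0.86 for *Gpr155*, -0.92 for *Slc38a2* and -0.97 for *Peg3*.

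From kidney the change differed for 9 genes. The difference, liver minus kidney on the log2 scale, was 2.17 for *Erbb4*, 1.94 for *Acaa1b*, 0.93 for *Pctp*, 0.92 for *Adtrp*, 0.90 for *Rdh16*, 0.85 for *Decr2*, 0.83 for *Susd4*, 0.59 for *Slc49a4* and -0.91 for *Gpr155*. These genes were chosen for their change in liver, so that the size of each difference rests in part on that choice.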

How the results depend on the processing

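None of the 37 genes past the adjusted p changed direction under any alternative. They were chosen for their change in these same libraries and did not overlap between the ages, so that a reversal was unlikely from the start. With all libraries, the 10 genes called higher became 41 without a count filter and 51 in DESeq2, and the 3 called lower became 32, 58 and, with the replicate block, 5. Past the adjusted p, the 26 higher genes became 17 with 2 ages fitted, 16 with the block, 103 without a filter and 237 in DESeq2, and the 11 lower genes became 6 with 2 ages, 69 without a filter and 187 in DESeq2. Of the 37 genes, 37 were kept in DESeq2, 36 with RLE factors, 32 in limma-voom, 26 with counts of the first strand, 18 with the block and 17 with 2 ages. The replicate numbers do not pair the libraries, since the same numbers at 8 and 12 weeks deviated with correlations from -0.109 to 0.036. Leaving out each library in turn gave 2 to 18 genes called higher, 0 to 10 called lower, 2 to 49 higher past the adjusted p and 0 to 30 lower. The cause of these differences was not tested. Genes with few counts, such as *Pard3bos3* with 2 to 6 counts at 8 weeks, are limited by depth.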

Other observations

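Other liver functions gave the following counts in the same comparison, and none of their tested genes passed the adjusted p in edgeR's quasi-likelihood test. Of 24 genes of lipid droplets and triglycerides, 19 were higher at 12 weeks (median log2 fold change 0.17, 7 at an unadjusted p under 0.05), and 14 without replicate 1 of the 12-week group. The count at an unadjusted p under 0.05, here and in the brackets below, takes both directions together. Of 18 genes of lipogenesis and elongation, 11 were higher (0.07, 6), the median lying between 0.0048 without replicate 4 of the 12-week group and 0.20 without replicate 2 of the 8-week group. Of 23 of cholesterol synthesis and uptake, 15 were higher (0.31, 5), with a median of 0.18 without replicate 3 of the 12-week group. *Fads2*, a desaturase, and *Sc5d*, of cholesterol synthesis, had no overlap between the ages, at 474 ± 15.3 and 687 ± 90 CPM, and at 299.9 ± 34.9 and 534 ± 127 CPM (SD, n = 4), with adjusted p of 0.0828 and 0.0807. Bile acid genes were higher in 16 of 21 (0.17, 3) and genes of the growth hormone and IGF axis in 11 of 16 (0.20, 3), the latter median being 0.11 without replicate 2 of the 12-week group. Proliferation genes were higher in 16 of 19 (0.20, 4), with a median of 0.33 and 0.35 without replicates 1 and 2 of the 8-week group.

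Genes of the pericentral zone, around the draining vein, were higher in 9 of 11 (0.31, 5), and those of the periportal zone and urea cycle lower in 9 of 14 (-0.17, 3). The pericentral median was 0.17 and 0.16 without replicates 3 and 4 of the 12-week group. Without replicate 4 of the 8-week group the periportal list had 7 genes higher and 7 lower, with a median of -0.03. *Cyp2a5*, a pericentral P450, stood at 348 ± 93.1 and 656 ± 127 CPM (adjusted p = 0.0647), and *Slc25a15*, which carries ornithine into mitochondria, at 579.6 ± 83.8 and 367 ± 55.6 CPM (adjusted p = 0.0647). Lower in most members were genes of glucose production and glycogen (9 of 14, -0.14, 2), flavin monooxygenases (5 of 5, -0.46, 1), collagen processing (10 of 14, -0.19, 3), the acute phase (12 of 19, -0.31, 2) and the unfolded protein response (12 of 17, -0.24, 3), where 50.6% of all genes were lower and 7.5% were higher and 7.91% lower at an unadjusted p under 0.05. Of the 2 genes of glucose production and glycogen at that p, 1 was higher, as was 1 of the 3 periportal genes. Without replicate 1 of the 12-week group, the acute phase was lower in 17 of 19 with a median of -0.57, and the flavin monooxygenases had one of -0.29, while without replicate 2 of that group the acute phase was lower in 10 of 19 with a median of -0.05. The median of collagen processing was -0.10 and -0.11 without replicates 1 and 2 of the 8-week group, and that of the unfolded protein response -0.11 without replicate 3 of the 8-week group. Interferon-stimulated genes were divided, with 9 of 16 lower (-0.05, 2), and 6 of 16 lower without replicate 1 of the 8-week group. Iron genes were higher in 5 of 10 (0.09, 3), with a median of -0.0035 without replicate 1 of the 12-week group. Markers of Kupffer cells were lower in 7 of 8 (-0.28, 0; -0.46 without replicate 4 of the 8-week group) and those of bile duct cells higher in 4 of 5 (0.53, 3). These medians stand beside one of -0.0033 over all genes tested.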
